A study of Mus musculus with 15 samples.

Results

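The libraries described here were sorted by how much of their RNA came from 2 secretory genes of the lacrimal gland, *Obp1a*, which encodes an odorant-binding lipocalin of tears, and *Mucl2*, which encodes a mucin-like secreted protein. The libraries were thus selected on measured counts. The raw counts of both genes were summed and expressed as a percent of all counts of the library. A library above 1% was called gland-rich and a library below 0.2% gland-poor, and those between were set aside. Of 15 conjunctival libraries, 11 fell into a class, with 7 gland-rich, 4 gland-poor and 4 between. The classes were cut from measured values of these same libraries, so the differences between them are given as a description and without p-values, and the counts of genes past a threshold serve to rank and count, not to test.

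The RNA came from the conjunctiva of female WT mice labelled BALC/c (BALB/c in the methods of the study), 9 to 12 weeks old according to those methods. Every mouse, controls included, had its skin sensitized with MC903, a vitamin D analog that inflames the skin, together with OVA. The PBS group then received PBS on the eye and no Ab, the isotype group OVA eye drops and an isotype control Ab, and the anti–IL-4Rα group OVA eye drops and an Ab against the receptor chain shared by IL-4 and IL-13, with 5 libraries in each group. No group lacked the skin sensitization, and the labels do not say whether a library held 1 animal or how the tissue was cut, so the spread between libraries may be partly technical.

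The lacrimal gland lies next to the conjunctiva and secretes the watery part of tears. Its acinar cells fill granules with lipocalins, secretoglobins, peroxidase and other proteins and release them when nerves act on muscarinic and adrenergic receptors. In mice, tears also carry peptides and lipocalins that other mice sense by smell. In bulk tissue, fewer cells of a type and less RNA per cell cannot be told apart.

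The bases before the starts of both sorting genes are shown because their transcripts carried the largest share of gland RNA, together with those of *Obp1b*, a neighbor of *Obp1a* that the sorting did not use. The sequences are from RefSeq (GRCm38.p6), run 5′ to 3′ on the strand of the gene and end at the base before the RefSeq start site. *Obp1b* was cut by a further 31 bases, to the base before its start in GENCODE M21. That annotation is of Ensembl release 96, whereas the counts were made with release 100. The sequences cover chrX:78091375-78091624 on the minus strand for *Obp1a*, chrX:78186558-78186776 on the plus strand for *Obp1b* and chr15:103899313-103899562 on the minus strand for *Mucl2*. Capitals mark the letters TATAAA.
Obp1a: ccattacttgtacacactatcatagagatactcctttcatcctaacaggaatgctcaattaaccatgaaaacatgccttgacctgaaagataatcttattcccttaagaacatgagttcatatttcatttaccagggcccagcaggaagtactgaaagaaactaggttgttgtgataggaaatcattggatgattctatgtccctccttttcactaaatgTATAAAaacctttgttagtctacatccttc
Obp1b: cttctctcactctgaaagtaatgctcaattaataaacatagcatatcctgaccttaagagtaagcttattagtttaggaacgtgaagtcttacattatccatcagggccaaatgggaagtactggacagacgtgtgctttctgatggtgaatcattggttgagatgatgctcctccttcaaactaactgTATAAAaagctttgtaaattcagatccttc
Mucl2: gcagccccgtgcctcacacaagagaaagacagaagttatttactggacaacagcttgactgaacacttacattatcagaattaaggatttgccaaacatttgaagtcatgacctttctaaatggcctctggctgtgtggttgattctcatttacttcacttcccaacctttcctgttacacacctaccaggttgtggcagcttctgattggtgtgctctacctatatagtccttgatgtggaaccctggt

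In *Obp1a* and *Obp1b* the TATAAA letters began 30 bases before the end of the sequence shown. Of the last 60 bases, 44 were identical position by position (73.3%). Both results depend on the start used for *Obp1b*. *Mucl2* shared 16 of those 60 positions with *Obp1a* (26.7%) and held no TATAAA in its window. Searched on the strand of the gene over the 250 bases before the RefSeq start site, TATAAA occurred in 12.2% of 172 matched promoters of the genes called higher in gland-rich libraries, in 5.48% of 13208 promoters of the other genes tested and in 8.12% of 27025 promoters in the table. CAGCTG and CATATG, letters read the same on both strands and bound by basic helix-loop-helix factors, occurred in 12.8% and 2.91% of the promoters of called genes, in 12.4% and 1.67% of those of the other tested genes and in 12.8% and 3.47% of all promoters. These matches describe letters in a window and no binding was measured.

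The share of counts from *Obp1a* and *Mucl2* differed between libraries of 1 group by orders of magnitude. In the PBS group it was 4.45e-06% in library 1, 0.334% in library 2, 0.00529% in library 3, 0.733% in library 4 and 4.69% in library 5. The isotype libraries gave 3.04%, 7.07e-05%, 0.617%, 2.54% and 0.416% from library 1 to 5. The anti–IL-4Rα libraries gave 9.60%, 5.12%, 0.112%, 11.5% and 11.2%. PBS library 1 thus held 3 counts of the pair in 67453932, and its 95% exact binomial interval ran from 9.17e-07% to 1.30e-05%. In the 13 libraries with at least 1000 counts of the pair the half-width of the interval was at most 3.74% of the share, which covers counting error only. The gland-rich class thus held PBS library 5, isotype libraries 1 and 4 and anti–IL-4Rα libraries 1, 2, 4 and 5, and the gland-poor class PBS libraries 1 and 3, isotype library 2 and anti–IL-4Rα library 3. The lowest gland-rich share was 2.54% and the highest between share 0.733%, and the highest gland-poor share was 0.112% and the lowest between share 0.334%. All treatment groups held both classes, but 4 of the 7 gland-rich libraries came from anti–IL-4Rα-treated mice, and their shares of 5.12% to 11.5% lay above the 2.54% to 4.69% of the other 3. Total counts ranged from 48657048 to 71637073 in gland-rich and from 52435180 to 87745024 in gland-poor libraries.

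**Figure D1:**
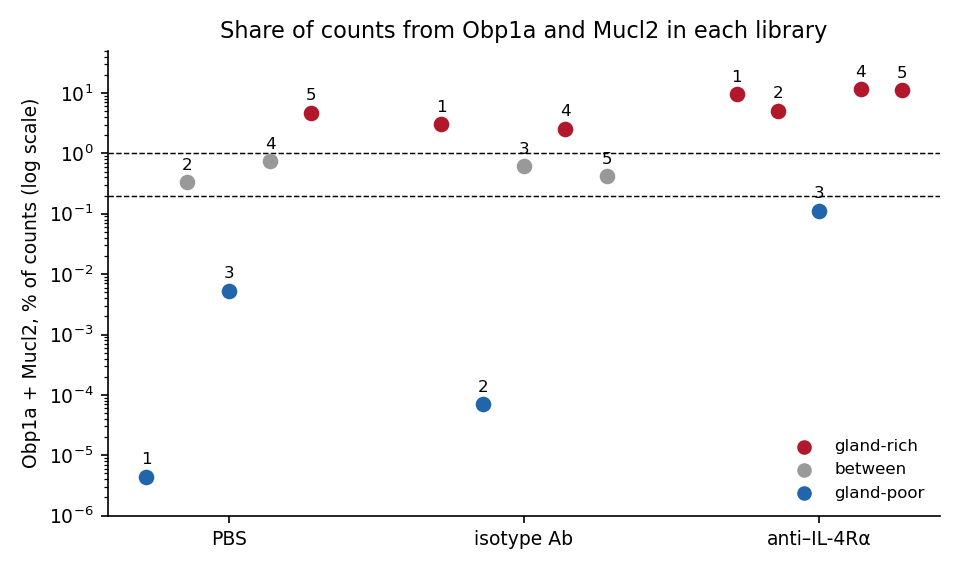
Percent of all counts from *Obp1a* and *Mucl2* in each of 15 libraries (points, with the replicate number above) by treatment group, on a log scale, with dashed lines at 1% and 0.2%. Shares ran from 4.45e-06% to 11.5%, and each group held gland-rich and gland-poor libraries.

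Some libraries stood apart in other ways. Isotype library 2 was high in hair keratins, with 2936 CPM of *Krt71* against 165 to 537 CPM in the other 14 libraries, and anti–IL-4Rα library 3 held 887 CPM of the immunoglobulin light chain *Igkc* against at most 281 CPM elsewhere. Both are gland-poor. *Bpifa6*, a secreted lipid-binding protein of the BPI family, was at 5181 CPM in anti–IL-4Rα library 2 and 1328 CPM in isotype library 4, both gland-rich, and between 0 and 171 CPM in the other 5 gland-rich libraries. CPM here are counts per 1000000 counts of a library, scaled by trimmed mean of M values (TMM). Epithelial genes were abundant throughout, with the keratin *Krt5* at 4109 to 6362 CPM and the goblet cell mucin *Muc5ac* at 994 to 2023 CPM over all libraries. The epidermal keratin *Krt10* was at 3942 to 8573 CPM, so *Krt5* need not come from conjunctiva alone. Of 6 further salivary and tear protein genes on the list, *Prol1*, *Sval3* and *Cst10* had no count, and *Smr2*, *Smr3a* and *Sval1* at most 2 counts in any library.

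Genes that followed gland tissue were found by an edgeR quasi-likelihood fit of class with treatment group as a term, in which a gene was called at a Benjamini-Hochberg adjusted p threshold of 0.05 and a fold of at least 2. Of 19006 genes tested, 265 were called higher in gland-rich libraries (1.39%) and 26 lower (0.137%), or 1.53% in either direction. Without the minimum fold, 484 were higher (2.55%) and 166 lower (0.873%). Every gland-rich library lay above every gland-poor library for 248 of the 265, a pattern met by 649 of all genes (3.41%) with 143 the other way round (0.752%), and the median log2 difference over all genes was −0.01. In 36 genes the fitted log2 difference was above 8, in 38 between 5 and 8, in 87 between 2 and 5, and in 104 between 1 and 2. The 265 genes took 6.68% to 28.1% of all counts in gland-rich libraries, 0.943% to 1.96% in those between and 0.0998% to 0.399% in gland-poor libraries. Their RNA was concentrated in few genes. *Mucl2* and *Obp1a* made up 40.8% of the summed CPM of the set in gland-rich libraries, and the 10 most abundant genes 87.0%. Without anti–IL-4Rα library 3, the number called higher was 141, of which 140 were among the 265. The genes named below are those of the rule given with the methods, and other list members are named after their values were seen.

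*Mucl2* ranged from 13300 CPM over a median of 31180 to 77330 CPM in gland-rich libraries and was at 0.0275, 26.3, 0.348 and 578 CPM in the gland-poor libraries PBS 1, PBS 3, isotype 2 and anti–IL-4Rα 3. *Obp1a* ranged from 11430 over 24030 to 65810 CPM and was at 0.0137, 22.8, 0.286 and 455 CPM in the same libraries. These are the values that chose the classes. Here and below, ± after a log2 difference is its size divided by the square root of its quasi-likelihood F statistic. This only approximates an SE. The fitted log2 differences were 9.10 ± 2.06 for *Mucl2* and 9.23 ± 2.10 for *Obp1a*. Without anti–IL-4Rα library 3, the gland-poor library with the largest share, they were 12.89 and 13.05. Over 25 alternative fits *Mucl2* ran from 4.47 to 15.4 and *Obp1a* from 4.49 to 15.5, and they passed the call in all but 15 and 14 of these fits.

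Of 10 tear lipocalins listed, 4 were tested and all 4 were called higher, with a median log2 difference of 8.11. Of all genes tested, 1.39% were called higher. Testing required 10 counts in at least 5 libraries, which the 7 gland-rich libraries could supply alone. The called part of this and the following tear protein lists is thus partly set by that filter and is a description. *Obp1b*, the neighboring odorant-binding protein, was at 4434 to 32450 CPM in gland-rich libraries and at 0, 8.56, 0.205 and 248.5 CPM in gland-poor libraries (log2 8.99 ± 1.93). Its difference ran from 4.27 to 14.7 over 25 alternative fits, and it was not called in 13 of them, including 8 of the 11 that left out 1 library. *Lcn11* (log2 8.66 ± 1.04), *Mup4* (7.55 ± 1.05) and *Mup5* (4.42 ± 0.36) followed, the last 2 being members of the major urinary protein family. Of *Obp1b*'s 90-base windows 60.7% also occur in the transcript of *Gm14743*, so reads may be split between them, whereas *Obp1a* and *Mucl2* shared no window with another annotated transcript.

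Of 24 secretoglobins listed, small dimeric proteins of gland secretions, 12 were tested, with a median log2 difference of 8.54. Of these 12, 9 were called higher, against 1.39% of all genes tested. *Scgb1b2* and *Scgb2b2* were the most abundant, at 17745 ± 10634 and 14836 ± 8730 CPM (SD, n = 7) in gland-rich libraries. Per kilobase of exon, the levels were 41851 CPM for *Scgb1b2*, 47829 CPM for *Obp1a* and 40261 CPM for *Mucl2*. *Scgb2b24* (log2 9.04 ± 1.60) and *Scgb1b20* (9.14 ± 1.31) also belonged to the group. The tested members not called were *Scgb1b3*, *Scgb2b15* and *Scgb2b27*, with log2 differences of 4.47 ± 1.57, −1.04 ± 0.88 and 1.32 ± 0.41. Paralogs on chromosome 7 share sequence, with 58.5% of the 90-base windows of *Scgb1b7* and 43.4% of those of *Scgb1b20* found in another gene, so the split between them is uncertain.

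Of 15 exocrine gland-secreted peptide genes listed, whose products are sensed by the vomeronasal organ, 12 were tested. All 12 were called higher, against 1.39% of all genes tested, with a median log2 difference of 8.25. *Esp15* was at 1494 to 8443 CPM in gland-rich libraries and at 0.0412, 2.81, 0.112 and 62.5 CPM in gland-poor libraries (log2 9.05 ± 1.62). *Esp6* had a higher level in gland-poor libraries than its relatives, 12.1 to 48.5 CPM, and a smaller difference (log2 6.13 ± 0.47). *Esp38* had no count in any gland-poor library and 0.873 to 5.01 CPM in gland-rich libraries, which made it at least 285-fold higher against a floor of 3 counts over the gland-poor class. With *Esp38* at that bound the median of the list was 8.19.

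Among 21 other tear and saliva proteins listed, 15 were tested and 9 of these were called higher, against 1.39% of all genes tested. *Pip*, the prolactin-induced protein, was at 1482 to 6842 CPM in gland-rich and 0.0412, 1.88, 0.0511 and 44.7 CPM in gland-poor libraries (log2 9.20 ± 1.60). The peroxidase *Lpo* (log2 7.78 ± 0.49), the lipase-related *Pnliprp1* (8.45 ± 0.86), *Sval2* (8.50 ± 1.09) and the nuclease *Dnase1* (8.83 ± 1.02) were of the same order. The carbonic anhydrase *Car6* had a level of 12.4 to 49.5 CPM in gland-poor libraries and differed by 4.04 ± 0.64. Lactoferrin (*Ltf*), lysozyme (*Lyz1*) and amylase (*Amy1*) were not called, with log2 differences of 0.23 ± 0.22, −0.07 ± 0.27 and 0.19 ± 0.11. *Ltf* was at 418 CPM on average in gland-poor libraries.

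**Figure D2:**
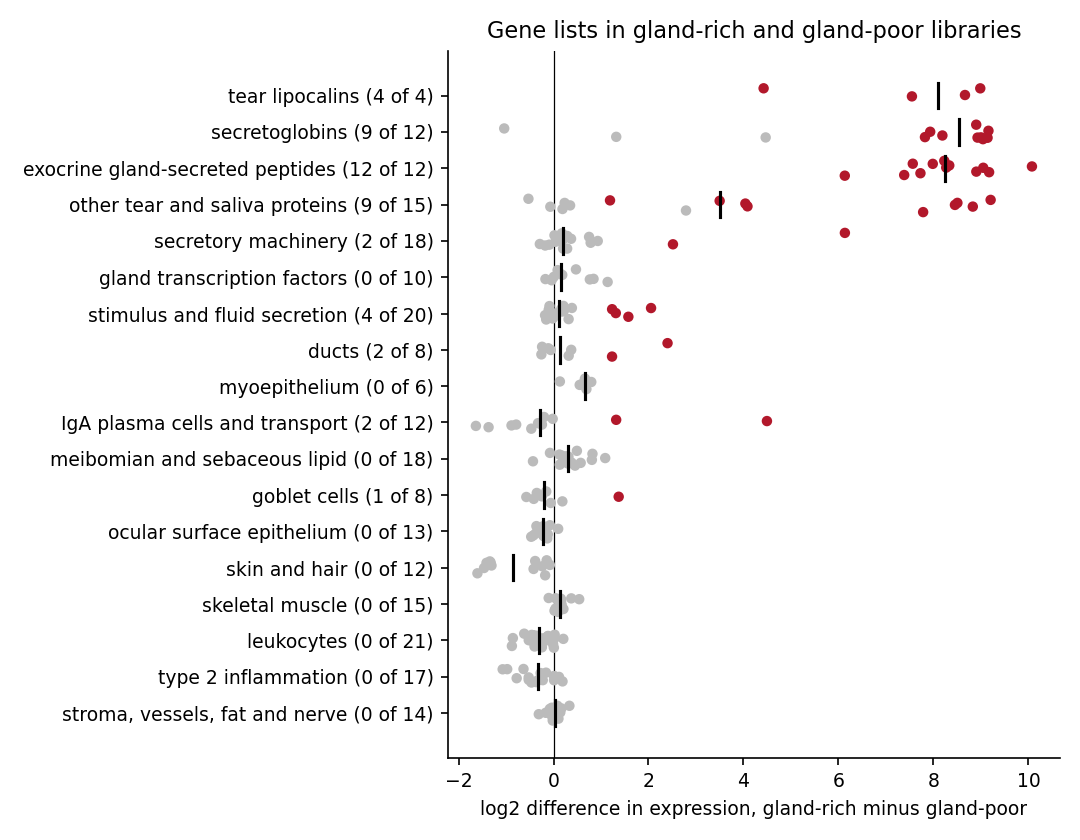
Log2 difference between gland-rich and gland-poor libraries for each tested member of 18 gene lists (points, red where called higher), with the median as a black bar and the number called of those tested beside each name. The 4 secretory protein lists reach medians of 3.50 to 8.54, and the other lists have medians between −0.86 and 0.65.

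Of 18 secretory machinery genes 2 were called, 15 had a positive difference and 8 lay higher in every gland-rich than in every gland-poor library. Of all 19006 genes, 1.39% were called higher, 8898 had a positive difference and 3.41% showed that separation. The summed level of the 18 genes was 1679 to 2748 CPM in gland-rich and 1464 to 1529 CPM in gland-poor libraries. *Bhlha15* (MIST1), a transcription factor of serous secretory cells, was at 70.9 to 422 CPM in gland-rich libraries and at 1.06, 1.43, 1.15 and 6.13 CPM in gland-poor libraries (log2 6.14 ± 0.36). The other called gene was the granule GTPase *Rab26* (2.52 ± 0.28). *Xbp1*, which drives expansion of the endoplasmic reticulum, was at 197 to 433 CPM in gland-rich and 144 to 177 CPM in gland-poor libraries, so that the classes did not overlap, but its log2 difference of 0.78 ± 0.16 was under the minimum fold. *Hspa5* and *Rab3d* differed by 0.19 ± 0.08 and 0.20 ± 0.09. None of 10 gland transcription factors was called. *Sox10*, a gene of lacrimal gland development, had a difference of 1.14 ± 0.69, and *Barx2*, *Sox9*, *Foxc1* and *Ehf* between −0.17 and 0.13.

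Of 20 genes for stimulation and fluid secretion, 4 were called higher, against 1.39% of all genes. The 4 encode the muscarinic receptor *Chrm3* (log2 1.58 ± 0.35), the adrenergic receptor *Adra1a* (1.31 ± 0.19) and the calcium-activated potassium channels *Kcnn4* (2.05 ± 0.44) and *Kcnma1* (1.23 ± 0.20). The water channel *Aqp5* was at 139 to 242 CPM in gland-rich and 115 to 157 CPM in gland-poor libraries, and its difference of 0.32 ± 0.16 was not called. *Atp1b1* and *Itpr3* differed by 0.04 ± 0.14 and −0.09 ± 0.08. Of 8 duct genes, *Krt18* (1.23 ± 0.16) and *Cldn10* (2.40 ± 0.33) were called, while *Krt19*, *Epcam*, *Krt8* and *Wfdc2* were not. All 6 myoepithelial genes had a positive difference (8898 of all 19006 genes), with a median of 0.65, and none was called. *Acta2* overlapped between the classes, at 262 to 613 and 236 to 437 CPM.

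In the gene lists of antibody secretion and mucus, 2 of 12 and 1 of 8 tested members were called higher, against 1.39% of all genes. *Pigr*, the receptor that carries IgA across epithelium, was at 152 to 550 CPM in gland-rich and 81.6 to 135 CPM in gland-poor libraries (log2 1.32 ± 0.26), and *Derl3*, a gene of endoplasmic reticulum degradation on the plasma cell list, at 41.7 against 1.46 CPM on average (4.49 ± 0.39). The other 10 genes of that list had negative differences, among them *Igkc* (−1.63 ± 0.66), *Jchain* (−1.37 ± 0.63) and *Igha* (−0.02 ± 0.40). *Igkc* and *Igha* were highest in gland-poor anti–IL-4Rα library 3, at 887 and 145.5 CPM. *Agr2*, a disulfide isomerase of mucous cells, was the only called goblet cell gene (1.37 ± 0.26), while *Muc5ac*, *Tff1* and *Fcgbp* differed by −0.35, −0.25 and 0.19. Over 25 alternative fits *Pigr* ran from 0.84 to 1.70 and was not called in 11. In the same fits *Agr2* ran from 0.96 to 1.96 and was not called in 8.

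No member of the fixed lists for tissues outside the gland, from ocular surface to stroma, was called in either direction. Hair genes that are on no list are described with the falls. Of 13 ocular surface genes 12 had a negative difference, with a median of −0.21, and their summed level was 12016 to 16539 CPM in gland-rich and 15390 to 17940 CPM in gland-poor libraries. All 12 skin and hair genes had a negative difference, with a median of −0.86. Of all 19006 genes, 8898 had a positive difference. The hair keratin *Krt71* carried −1.34 ± 0.42 and the epidermal *Krt10* −0.14 ± 0.19. The summed skin and hair level was 11938 to 18214 against 15731 to 25574 CPM, highest in isotype library 2. Meibomian and sebaceous genes (18), skeletal muscle genes (15), leukocyte genes (21) and stromal genes (14) had medians of 0.31, 0.15, −0.31 and 0.02. Of 17 genes of type 2 inflammation none was called, with a median of −0.33. Whether any of these tissues took part in the differences of the secretory genes was not tested.

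Several genes outside the lists, chosen after their values were seen, also followed the gland. *Gm5938*, an unnamed gene between *Obp1a* and *Obp1b* at chrX:78125467-78130403, was the third most abundant at 19499.5 CPM on average (log2 9.12 ± 1.99). *Gm1553* on chromosome 10 and *Gm14135* on chromosome 2 reached 6639 and 2421 CPM with differences of 9.20 ± 1.79 and 9.09 ± 1.58. Of 25 alternative fits, *Gm5938* was not called in 13, *Gm1553* in 8 and *Gm14135* in 5. *Ccl28*, a chemokine that recruits IgA-secreting cells to mucosa, was higher by 2.96, the sulfotransferase *Chst1* by 4.07, the gap junction gene *Gjb1* by 3.73 and the oxidoreductase *Ero1lb*, which acts in disulfide formation, by 2.07. Of the 10 largest rises by the rule, *Esp38*, *Gm12886*, *Pip*, *Gm1553*, *Esp31*, *Scgb2a2*, *A630073D07Rik*, *Scgb1b20*, *Gm5938* and *Gm14135*, the smallest was 9.09.

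Some of the called genes lay in clusters. Of 264 with a position, 100 had another called gene starting within 500000 bases (37.9%), while 15.6% of all tested genes had a called gene that near. Runs were drawn from the called genes and start and end at a called gene. The called part of a run is therefore high by construction and only describes it. The longest run was on chromosome 17 (17:38416474-40637060, GRCm38), where 14 of 18 tested genes were called, 12 of them exocrine gland-secreted peptide genes. Secretoglobin genes formed runs at 7:31263757-31713978 (5 of 7 tested) and 7:33364343-33744982 (4 of 4), lipase-related *Lipo* genes at 19:33447613-33787459 (5 of 6), and *Obp1a*, *Gm5938*, *Obp1b* and *Gm14743* at X:78085505-78245921 (4 of 4). The sulfotransferase genes *Gal3st2*, *Gal3st2b* and *Gal3st2c* at 1:93861306-94017147 were called, with 5 genes tested in the run. Of 264 called genes, 35 shared over 10% of their 90-base windows with another gene, and the part of shared reads in such runs was not tested.

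Some gland genes varied little relative to the sorting genes. The genes were called by classes cut from counts of these sorting genes, so a small spread is partly built in. The spread over all genes is not given for comparison. Among 107 called genes with at least 10 CPM in gland-rich libraries, counts per 1000 *Obp1a* and *Mucl2* counts had a median coefficient of variation of 27.1% over the 7 gland-rich libraries, with 38 genes under 20% and 14 over 50%. The smallest spreads in gland-rich libraries were those of *Gal3st2c* (2.78%), *Esp18* (2.91%, 13.6 to 14.8 counts per 1000) and *Bhlha15* (5.51%, 2.63 to 3.15). In other libraries not all ratios stayed at this level. In gland-poor PBS library 3 *Gal3st2c* was at 4.79, *Esp18* at 23.1, *Bhlha15* at 29.2, *Esp6* at 279.5 against 31.0 to 36.5 in gland-rich libraries, and *Lpo* at 49.03 against 13.5 to 16.2. *Gm5938* and *Esp15*, in contrast, varied by 6.36% and 5.65% over all 13 libraries. In the libraries that did not define the gland-rich class, *Gm5938* stood at 273 and 260 counts per 1000 in PBS libraries 2 and 4, 266 and 261 in isotype libraries 3 and 5, 243 in anti–IL-4Rα library 3 and 288 in PBS library 3, next to 225 to 270 in gland-rich libraries. *Esp15* stood at 57.4 to 66.7 there and at 55.4 to 65.5 in gland-rich libraries. The ratio of these 2 genes thus stayed in these ranges while the share ran from 0.00529% to 11.5%.

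Another set did not keep the ratio. *Scgb1b20* was at 29.1 counts per 1000 in isotype library 4, 34.96 in anti–IL-4Rα library 2 and 31.9 in isotype library 5, and at 2.88 to 16.2 in the other 10 libraries. *Scgb1b7* showed the same libraries on top, at 23.7, 20.1 and 14.8 against 3.05 to 10.1. *Scgb2b7* was at 15.5, 12.5 and 10.8 in these libraries, and *Lipo1* at 3.49, 3.43 and 4.25 against at most 1.57 in the others. *Scgb2b7* was as high in PBS library 3, at 16.5, a gland-poor library with few counts of the pair. *Obp1a* per *Mucl2* ranged from 0.771 to 1.002 in gland-rich libraries.

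**Figure D3:**
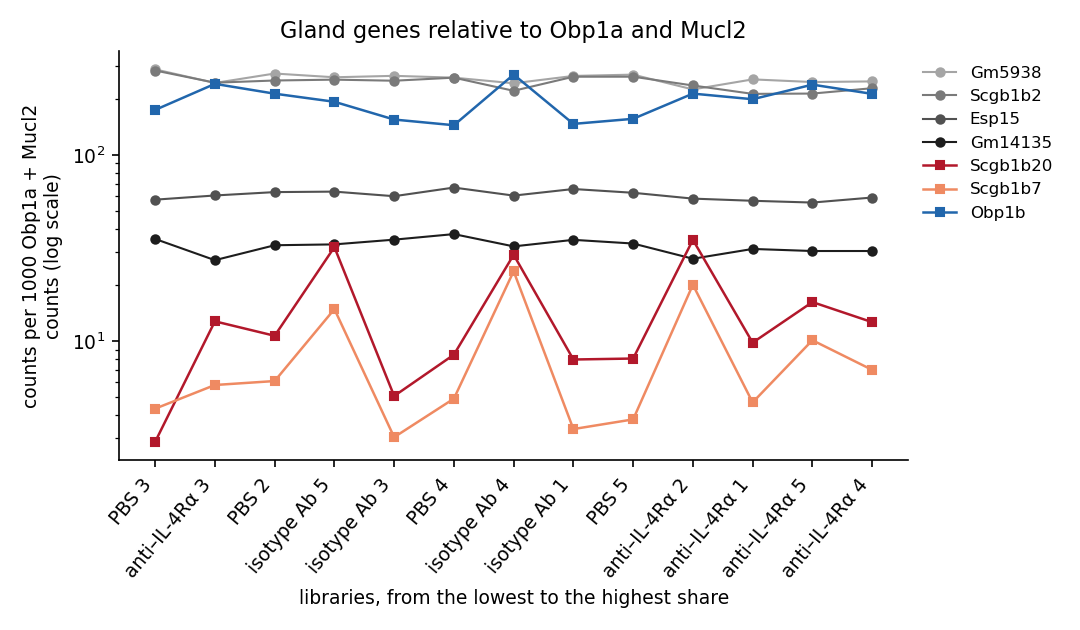
Counts per 1000 *Obp1a* and *Mucl2* counts (log scale) for 7 called genes in the 13 libraries with at least 1000 counts of the pair, ordered by share. *Gm5938*, *Scgb1b2*, *Esp15* and *Gm14135* (grey to black) run level, *Obp1b* (blue) lies between 144 and 270, and *Scgb1b20* (2.88 to 34.96) and *Scgb1b7* (3.05 to 23.7) peak in isotype libraries 4 and 5 and anti–IL-4Rα library 2.

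*Bpifa6* itself did not follow the *Obp1a* and *Mucl2* share. It was at 0.907, 25.6, 138, 877 and 171 CPM in PBS libraries 1 to 5, at 0, 0, 0.0168, 1328 and 0.469 CPM in the isotype libraries and at 0, 5181, 0.510, 0.124 and 2.01 CPM in the anti–IL-4Rα libraries. Isotype library 1 and anti–IL-4Rα library 1 were thus gland-rich without a count of *Bpifa6*, and gland-poor PBS library 3 held 138 CPM. The genes most like it over 15 libraries by Pearson's r of log2(CPM + 1) were *BC048679* (r = 0.996), *9430007A20Rik* and *Ugt1a8* (both 0.98), *Cartpt* (0.97), *Mogat1* (0.96), which makes diacylglycerol, *Cyp4a32* and *Cyp4a10* (both 0.95), of a family that oxidizes fatty acids, and the fatty acid elongase *Elovl5* (0.95). *Elovl5* was at 883, 1177 and 3690 CPM in PBS library 4, isotype library 4 and anti–IL-4Rα library 2 and at 70.1 to 228 CPM elsewhere. None of these genes was called between the classes. The correlations share libraries and depth and are a description.

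**Figure D4:**
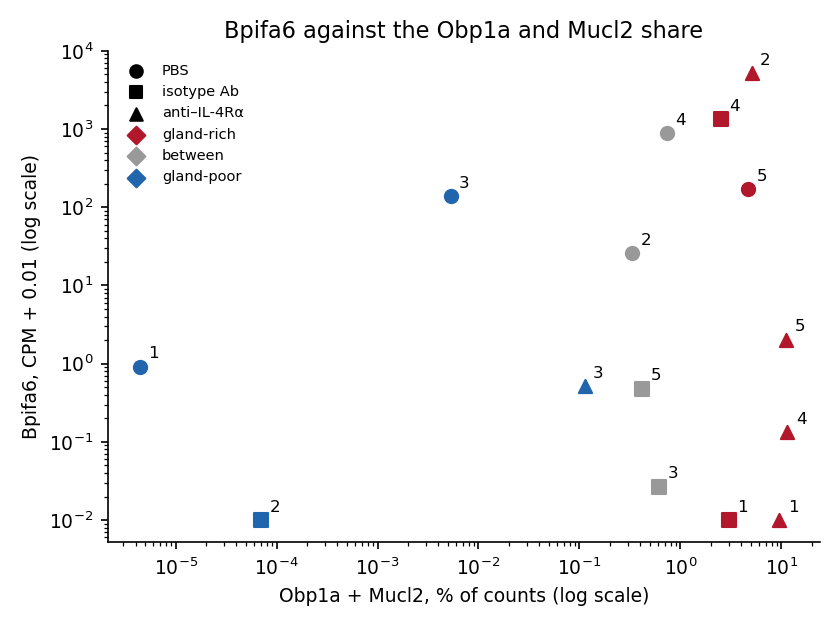
*Bpifa6* (CPM + 0.01, log scale) against the *Obp1a* and *Mucl2* share (log scale) in 15 libraries, with 0.01 added so that libraries at 0 CPM are shown, color for class and shape for treatment group. Anti–IL-4Rα library 2 (5181 CPM) and isotype library 4 (1328 CPM) lie far above the other gland-rich libraries.

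The 10 largest falls by the rule were highest in 1 or other of 2 gland-poor libraries. The rest of the 26 genes called lower are not described here. Of the 10 largest falls, 9 were hair follicle or keratin-associated genes and other genes highest in isotype library 2, and the tenth, the immunoglobulin gene *Igkv6-32*, was at 357 CPM in anti–IL-4Rα library 3 and at most 6.80 CPM elsewhere (log2 −7.21 ± 0.91). *Krtap1-5* was at 266 CPM in isotype library 2 and at 6.80 to 52.4 CPM in the other 14 libraries (−1.94 ± 0.44). *Krtap19-9a*, *Krtap5-1*, *Krtap5-4* and *Krt40*, with *Gm36176*, *Gm3250*, *Gm45618* and *Kcne1*, had differences of −2.65 to −1.87. The classes overlapped in all 10. Without isotype library 2, 1 of the 10 was still called (*Igkv6-32*, −7.23), and the differences of the 10 ran from −7.23 to −1.10. Without anti–IL-4Rα library 3 none was called, although the differences of −6.84 to −1.99 were of about the same size as with it.

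The 4 libraries between the thresholds took no part in the fit, but the rule placed their share between those of the classes. The mean of 239 of 263 called-higher genes, *Obp1a* and *Mucl2* left out, lay between the class means, as did that of 8149 of all 19006 genes. For genes picked because they differed between the classes, such a mean was largely set by the sorting. Within the PBS group, 204 of the 263 (77.6%) were higher in library 4 than in library 2, which had the smaller share, against 48.4% of all genes, with a median log2 difference of 0.52. Within the isotype group, 170 (64.6%) were higher in library 3 than in library 5, against 45.9% of all genes, with a median of 0.15. These pairs had 1 library on each side and were not tested.

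Because anti–IL-4Rα-treated mice held most of the gland-rich libraries, the treatment contrast against isotype was fitted with and without the gland. Over the 11 libraries and without a gland term, 3 genes were higher in anti–IL-4Rα-treated than in isotype-treated mice (0.0158%) and 54 lower (0.284%). Of the 263 gland-following genes none was called, 51 had an unadjusted p under 0.05, as had 3869 of all 19006 genes, and their median log2 difference was 1.45 against 0.01 over all genes. With the class as a term, 62 genes were higher (0.326%) and 93 lower (0.489%), and 47 of the 263 were among the former, with a median of 1.10. An unadjusted p under 0.05 was then found for 209 of the 263 and for 4181 of all genes. The 263 were picked by the class term of this same fit. Neither the 47 calls nor the 209 can therefore be set against the rate over all genes. Within the gland-rich class the anti–IL-4Rα libraries had shares of 5.12% to 11.5% and the isotype libraries of 2.54% to 3.04%, a difference that the class term does not hold.

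Without isotype library 4, 1 gene was higher and 27 lower in the fit with the class term, and without anti–IL-4Rα library 2, 102 were higher.

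The same contrast was fitted over all 15 libraries. Without a gland term 158 genes were higher (0.831%) and 248 lower (1.30%), and 73 of the 263 gland-following genes were higher. With the log2 share as a term 36 were higher (0.189%) and 165 lower (0.868%), and 7 of the 263 were higher. Their median log2 difference was 1.72 without the term and 0.94 with it. *Pip* was 2.50 higher on the log2 scale without the term (adjusted p = 0.374) and −0.14 with it (adjusted p = 0.738), *Bhlha15* 2.70 (adjusted p = 0.174) and 1.44 (adjusted p = 0.246), and *Pigr* 1.38 (adjusted p = 0.0291) and 1.11 (adjusted p = 0.0603), all by edgeR's quasi-likelihood test. For *Pigr*, the contrast was thus called without the term only. Genes of type 2 inflammation were called lower in 10 of 17 members by either fit, with medians of −1.71 and −1.44. Treatment and gland share were not independent in these libraries, so their parts in the 263 genes cannot be told apart.

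**Figure D5:**
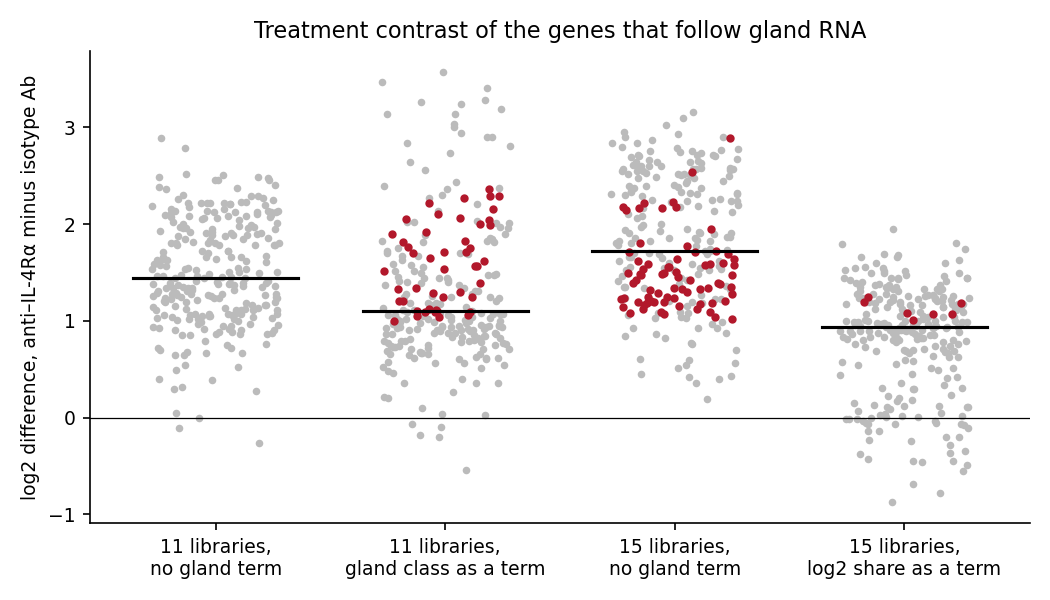
Log2 difference between anti–IL-4Rα and isotype libraries for each of 263 gland-following genes (points, red where called, with black bars at the medians of 1.45, 1.10, 1.72 and 0.94) in 4 fits that differ in libraries and gland term. Calls numbered 0, 47, 73 and 7.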

How the data were processed

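The authors mapped paired reads uniquely to the B38 mouse genome with the Ensembl R100 gene model in Omicsoft Array Studio after a quality filter of 20, and deposited 1 table of estimated counts per gene. The counting settings, including strand, are not given in the sources used here. Counts (48622246 to 87745024 per library) were rounded to whole numbers before tests. A gene was tested where 5 or more of the 15 libraries reached 10 counts (19006 of 55487). Fits used edgeR 4.0.16 with TMM factors, quasi-likelihood tests and Benjamini-Hochberg adjustment over all tested genes. limma 3.58.1 and DESeq2 1.42.0 served as alternatives. The script was tested on simulated data. CPM in the text are TMM-scaled, and shares are of raw counts. Shared 90-base windows were counted in GENCODE M21 transcripts of the same genome build. Same-number correlations of deviations ran from −0.385 to 0.454. Different numbers were not compared, so this range cannot settle whether replicate numbers pair the libraries. The main fit used no pairing. The genes named were *Obp1a*, *Mucl2*, the 10 largest rises and falls with 1 sign in each treatment group, the 4 members of each list with the highest level per length, and others marked as chosen after their values were seen. Members, thresholds and lists were chosen with earlier results of these data known. The methods of the study mention outliers without naming them in the sources used here, so no library was removed on that ground.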

Additional observations from a re-analysis of the deposited data

Results flagged for a closer look

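Within treatment groups of 5 libraries, 36 of 123 sets of values had a highest library that stood apart from the others by a gap above Dixon's 95% critical value of 0.71 of the range. Chance gives about 5% for values not chosen beforehand, but these sets include the sorting share, the sorting genes and the genes with the largest differences, so their number cannot be set against that rate. Many also share a library.

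PBS library 5 stood above the other PBS libraries in its *Obp1a* and *Mucl2* share (4.69%). It did so in the summed CPM of tear lipocalins (7889), secretoglobins (28210), exocrine gland-secreted peptides (6384), other tear and saliva proteins (5200) and secretory machinery (1792). The same library was flagged for *Mucl2* (23940 CPM), *Obp1a* (23990 CPM), *Esp38* (2.30 CPM), *Gm12886* (201.5 CPM), *Pip* (2323 CPM), *Gm1553* (4232 CPM), *Esp31* (452 CPM), *Scgb2a2* (683 CPM), *A630073D07Rik* (0.615 CPM), *Scgb1b20* (386 CPM), *Gm5938* (12920 CPM) and *Gm14135* (1600 CPM). It is the only gland-rich library of its group, so the sorting itself fixed that it stood apart in the share and in genes that follow it.

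Isotype library 2 stood above the other isotype libraries for *Krtap19-9a* (6.87 CPM), *Gm36176* (4.08 CPM), *Krtap5-1* (2.93 CPM), *Krtap5-4* (14.5 CPM), *Gm3250* (7.94 CPM), *Gm45618* (11.7 CPM), *Krtap1-5* (266 CPM), *Krt40* (8.97 CPM), *Kcne1* (8.31 CPM) and *Igkv6-32* (2.48 CPM). Anti–IL-4Rα library 3 did so for *Igkv6-32* (357 CPM), *Gm3250* (1.43 CPM), *Kcne1* (1.25 CPM) and the summed ocular surface genes (16740 CPM), and anti–IL-4Rα library 2 for the summed meibomian and sebaceous genes (24640 CPM). PBS library 2 was highest for *Krtap5-4* (2.63 CPM) and *Krt40* (2.39 CPM), and PBS library 3 for *Igkv6-32* (0.177 CPM).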

How the results depend on the processing

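In the main fit 265 genes were higher and 26 lower in gland-rich libraries, and 62 were higher and 93 lower in anti–IL-4Rα than in isotype libraries with the class as a term, 47 of the former among the gland-following genes. No named gene called between the classes reversed in the alternative fits. Signs of the treatment difference did change. Over 15 libraries all 263 gland-following genes had a positive log2 difference without a gland term, and 231 with the log2 share as a term. DESeq2 gave 153 lower, and 169 higher, 223 lower and 120 gland-following genes higher for treatment. limma voom gave 70 lower, and 12 and 10 higher for treatment. limma on log2(CPM + 1) gave 157 higher and 1 lower, no filter 63 lower, and no treatment term 1 lower. With the log2 share in 15 libraries, 92 genes followed it upward, and 36, 165 and 7 were the treatment counts. A split at 0.5% gave 84 and 2, no minimum fold 484 and 166. Within the PBS group the counts were 51 and 0, within isotype 282 lower, and within anti–IL-4Rα 1 and 0, with 1 library on 1 side at least. Without a gland term the treatment counts were 3, 54 and 0, and over 15 libraries 158, 248 and 73. Without the 2 libraries highest in *Bpifa6*, chosen after seeing the data, they were 8, 25 and 8, with 5 genes lower between classes. The cause of these changes was not tested.

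Leaving out 1 library gave 141 (without anti–IL-4Rα 3) to 275 (without anti–IL-4Rα 2) genes higher and 4 (without isotype 1) to 120 (without PBS 5) lower between classes. For treatment it gave 1 (without isotype 4) to 102 (without anti–IL-4Rα 2) higher, 27 (without isotype 4) to 108 (without isotype 1) lower, and 1 to 88 gland-following genes higher.

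With the replicate number as a block, 49 genes were higher and 5 lower between classes, and 0 higher, 14 lower and 0 gland-following genes higher for treatment. Whether the numbers pair the libraries is not known.

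Of the 34 genes of the 4 tear protein lists called higher, the count was 8 with the split at 0.5%, 21 with the block, 20 within the PBS group, 28 within isotype and 0 within anti–IL-4Rα, and 28 to 34 with 1 library left out.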
